A study of Homo sapiens with 12 samples.

Results

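The genes described here are 137 protein-coding genes whose mRNA was higher after NUDT21 knockdown in each of the cell lines MUTZ-1 and SKM-1, both of human origin. They were chosen from their measured values: the count of a gene in a library was divided by the library's total and expressed as counts per 1e+06 counts (CPM), and group means were taken over 3 libraries. A gene was kept if its mean reached 10 CPM in at least 1 group of each line and if the mean in the knockdown group was at least 1.3 times the mean in the control group in MUTZ-1 and in SKM-1. Of 17518 genes in the count table, 8447 reached the minimum level, and the 137 are 1.62% of these.

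RNA sequencing had been done on 12 libraries from MUTZ-1 and SKM-1, human lines of myelodysplastic syndrome, a disorder of blood formation in the bone marrow. The lines are named as in the sample titles, and the identity of the cells was not tested. The 4 groups of 3 libraries are MUTZ-1 with a short hairpin RNA (shRNA) against NUDT21, MUTZ-1 with a control shRNA, SKM-1 with the shRNA against NUDT21, and SKM-1 with the control shRNA. All 12 thus carry an shRNA, and the labels give the genotype of the control cells as wild type. The labels mark the shNUDT21 libraries of both lines with sh1 and name no other hairpin against NUDT21. Effects of this shRNA other than on NUDT21 were not tested. The sequence of the shRNA, the number of clones behind a group and whether replicates came from separate cultures are not stated in the labels.

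NUDT21, also called CFIm25, is the subunit of cleavage factor Im that recognises UGUA in nascent transcripts. The complex binds before the cleavage site and helps to choose among the poly(A) sites of a gene, so that lowering NUDT21 is known to shift many transcripts to earlier sites and shorter 3' untranslated regions (3' UTRs). Counts per gene, as used here, measure the amount of mRNA of a gene and carry no information on its 3' end.

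NUDT21 itself had 134, 135 and 141 CPM in the shNUDT21 libraries of MUTZ-1, against 289, 285 and 289 CPM in its control libraries. In SKM-1 it had 131, 131 and 129 CPM in the shNUDT21 libraries, against 339.5, 354 and 361 CPM in the control libraries. The targeted mRNA was thus at 0.476 of its control mean in MUTZ-1 and at 0.37 in SKM-1.

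The libraries held 15843012 to 18426619 counts. The knockdown and control groups differed far less widely in MUTZ-1 than in SKM-1: the SD of the log2 ratio over the 8447 genes was 0.28 in MUTZ-1 and 1.07 in SKM-1. The median log2 ratio per chromosome ran between -0.0086 and 0.060 in MUTZ-1, but between -1.07 on chromosome 13 and 0.52 on chromosome 21 in SKM-1. A list of 25 genes that mark erythroid cells summed to 549 to 556 CPM in shNUDT21 and 926 to 949 CPM in control libraries of MUTZ-1, and to 8932 to 9257 CPM and 3229 to 3300 CPM in SKM-1. Without TFRC, the transferrin receptor, the same list summed to 262 to 264 CPM in shNUDT21 and 232 to 238 CPM in control libraries of MUTZ-1, so that the lower sum in MUTZ-1 came from that gene, and to 7487 to 7773 CPM and 2774 to 2863 CPM in SKM-1. A list of 24 monocyte and granulocyte genes summed to 374 to 385 CPM in shNUDT21 and 488 to 513 CPM in control libraries of MUTZ-1, and to 200 to 212 CPM and 1088 to 1103 CPM in SKM-1. The lower sum in SKM-1 came from CD36, a scavenger receptor, at 25.4 to 27.1 CPM in shNUDT21 and 955 to 980 CPM in control libraries. Without CD36 the list summed to 173 to 186 CPM in shNUDT21 and 123 to 134 CPM in control libraries of SKM-1, and to 373 to 383 CPM and 487 to 513 CPM in MUTZ-1. In MUTZ-1 only 3 genes of the list, IRF8, SPI1 and CTSS, reached 10 CPM, and the sum there came mostly from them. IRF8 averaged 267 CPM in shNUDT21 and 333 CPM in control libraries, SPI1 69.1 and 76.7 CPM, and CTSS 34.1 and 79.4 CPM. TFRC and CD36 were singled out after their values were seen. A list of 20 B-lineage genes, 17 of them above 10 CPM in MUTZ-1 and 1 in SKM-1, summed to 4915 to 5041 CPM and 5256 to 5271 CPM in MUTZ-1, and to 110 to 117 CPM and 47.8 to 59.2 CPM in SKM-1. The progenitor marker CD34 averaged at most 0.0191 CPM in any group. The part of these shifts in the ratios of the 137 genes was not tested, and in each line the knockdown and any other difference between the cells of its groups cannot be told apart. In such bulk samples a change in the share of a kind of cell and a change in RNA per cell cannot be told apart either.

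The leading genes by the smaller of the 2 ratios code for a phosphatase, a phospholipase, a chromatin remodelling subunit, the nuclear lamina and an ion channel, and 6 genes had a ratio of at least 2 in both lines: PTPRR, PLCB2, CCDC74A, SMARCD3, LMNA and ASIC3. The ratio of means ran between 1.3 and 11.0 in MUTZ-1, with a median of 1.43, and between 1.3 and 6.18 in SKM-1, with a median of 1.75. It was the larger of the pair in SKM-1 for 104 genes and in MUTZ-1 for 33. Many lay close to the threshold, since 66 genes had a smaller ratio under 1.4 and 43 had a smaller ratio of at least 1.5.

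**Figure D1:**
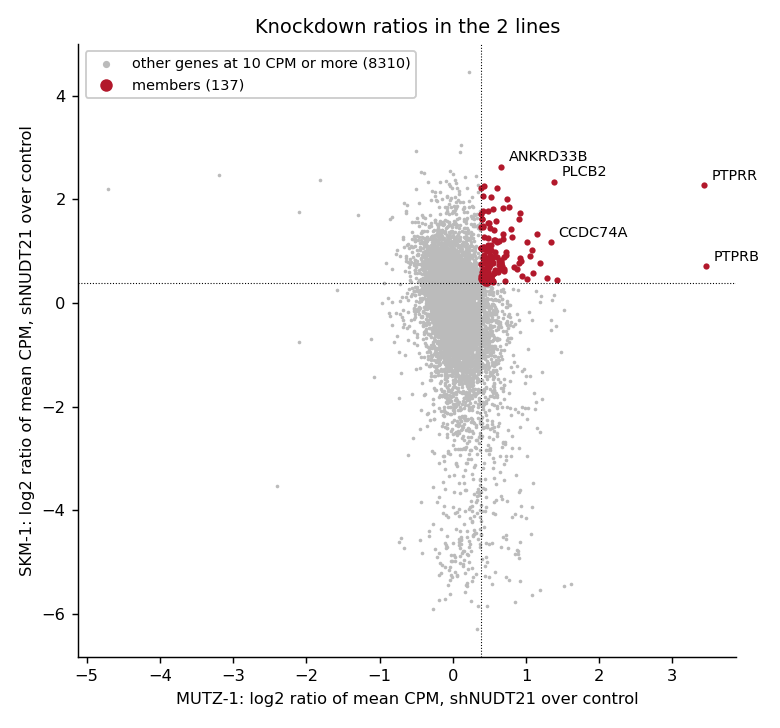
Log2 ratio of mean CPM, shNUDT21 over control, in MUTZ-1 (x axis) and SKM-1 (y axis), for 8447 genes at the minimum level; the dotted lines mark the ratio of 1.3. The 137 chosen genes (red) fill the upper right corner, with PTPRR and PTPRB far to the right, and the grey cloud of the other 8310 genes is narrower along MUTZ-1 (SD 0.28) than along SKM-1 (SD 1.07).

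A ratio of at least 1.3 was reached by 758 of the 8447 genes (8.97%) in MUTZ-1 and by 2455 (29.1%) in SKM-1. The 137 genes are 18.1% of the MUTZ-1 set and 5.58% of the SKM-1 set. A larger share of the MUTZ-1 set, 427 genes or 56.3%, had a SKM-1 ratio of at most 1 over 1.3, as did 30.3% of all 8447 genes. For all 137 genes, every shNUDT21 library was above every control library in both lines, as for 36.4% of the 8447 genes in MUTZ-1 and 44.8% in SKM-1. All 137 were also tested and higher with edgeR's quasi-likelihood test in both lines at an adjusted p under 0.05, against 24.4% of 13625 genes tested in MUTZ-1 and 42.1% in SKM-1. Since the rule used these contrasts, the knockdown values below are a description, and nothing is read from these counts. Of the 137, 33 reached 10 CPM in a line only through the knockdown group, where the rule required them to be high.

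Just inside the threshold stood MPP1, a scaffold protein of the red cell membrane, with a smaller ratio of 1.3006 in SKM-1. SLC66A1, a lysosomal amino acid transporter, followed with 1.3014 and MYB with 1.3019, both in MUTZ-1. Just outside stood SP140L with 1.2996, INAFM2 with 1.2988 and ZNF789 with 1.2983, all in MUTZ-1.

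PTPRR, a tyrosine phosphatase that acts on ERK and p38 kinases, had 43.3, 41.8 and 40.3 CPM in the shNUDT21 libraries of MUTZ-1, against 3.97, 3.44 and 4.23 CPM in the control libraries. SKM-1 gave 17.4, 18.3 and 20.3 CPM in the shNUDT21 libraries, against 4.33, 3.55 and 3.69 CPM in the control libraries. The control levels of the lines overlapped, and the knockdown levels lay far above them, at 10.8 times the control mean in MUTZ-1 and 4.84 times in SKM-1. PTPRR lies on the minus strand of chromosome 12 at chr12:70638073-70920843, and its 3' end is 632 bases from the start of PTPRB at chr12:70515866-70637440 on the same strand. PTPRB codes for the endothelial receptor phosphatase VE-PTP and is itself among the 137.

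PTPRB had 12.3, 12.6 and 11.5 CPM in the shNUDT21 libraries of MUTZ-1, against 1.14, 0.744 and 1.41 CPM in the control libraries. In SKM-1 it had 20.9, 20.6 and 23 CPM in the shNUDT21 libraries, against 12.8, 13.2 and 13.5 CPM in the control libraries. In MUTZ-1 the neighbours thus had nearly the same ratio, 11 for PTPRB and 10.8 for PTPRR, while in SKM-1 PTPRB was present in the control cells and its ratio was 1.63.

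PLCB2, a phospholipase C activated by G proteins, had 31.4, 30.4 and 32.8 CPM in the shNUDT21 libraries of MUTZ-1, against 10.2, 12.3 and 13.8 CPM in the control libraries. SKM-1 gave 17.4, 20.7 and 20.1 CPM in the shNUDT21 libraries, against 3.74, 3.6 and 4.17 CPM in the control libraries. The groups did not overlap in either line, and the ratios were 2.61 in MUTZ-1 and 5.05 in SKM-1. CCDC74A had 81.3, 88.1 and 80.0 CPM in the shNUDT21 libraries of MUTZ-1, against 32.9, 30.6 and 35.1 CPM in the control libraries. Its SKM-1 libraries had 18, 15.2 and 15.9 CPM with shNUDT21, against 9.02, 5.72 and 7.07 CPM in the control. CCDC74A has a near-identical copy, CCDC74B, and how reads of such a pair were assigned is not given, so these values are uncertain.

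SMARCD3, the BAF60C subunit of SWI/SNF chromatin remodelling complexes, had 26.4, 26.1 and 26.7 CPM in the shNUDT21 libraries of MUTZ-1, against 12, 12.1 and 11.5 CPM in the control libraries. In SKM-1 it had 22.7, 20.7 and 22.7 CPM in the shNUDT21 libraries, against 8.48, 8.75 and 9.13 CPM in the control libraries. The groups did not overlap in either line, and the ratios were 2.23 in MUTZ-1 and 2.51 in SKM-1. SMARCD3 overlaps CHPF2 on the other strand, and since the strand setting of the counting is not given, reads of such pairs may be shared. ASIC3, an acid-sensing sodium channel of sensory neurons, had 12.5, 11.4 and 12.9 CPM in the shNUDT21 libraries of MUTZ-1, against 5.65, 5.84 and 6.78 CPM in the control libraries. SKM-1 gave 10.4, 12.2 and 10.2 CPM in the shNUDT21 libraries, against 4.98, 5.38 and 4.11 CPM in the control libraries. Its ratios were 2.02 in MUTZ-1 and 2.26 in SKM-1.

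LMNA codes for lamin A and lamin C, the intermediate filaments under the nuclear envelope that are scarce in many blood cells. It had 10.5, 10.6 and 10.9 CPM in the shNUDT21 libraries of MUTZ-1, against 5.98, 5.32 and 3.74 CPM in the control libraries. In SKM-1 it had 239, 241 and 239 CPM in the shNUDT21 libraries, against 120.3, 113 and 122 CPM in the control libraries. The ratio was close in the lines, 2.12 in MUTZ-1 and 2.02 in SKM-1, although every SKM-1 library held more LMNA mRNA than any MUTZ-1 library.

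**Figure D2:**
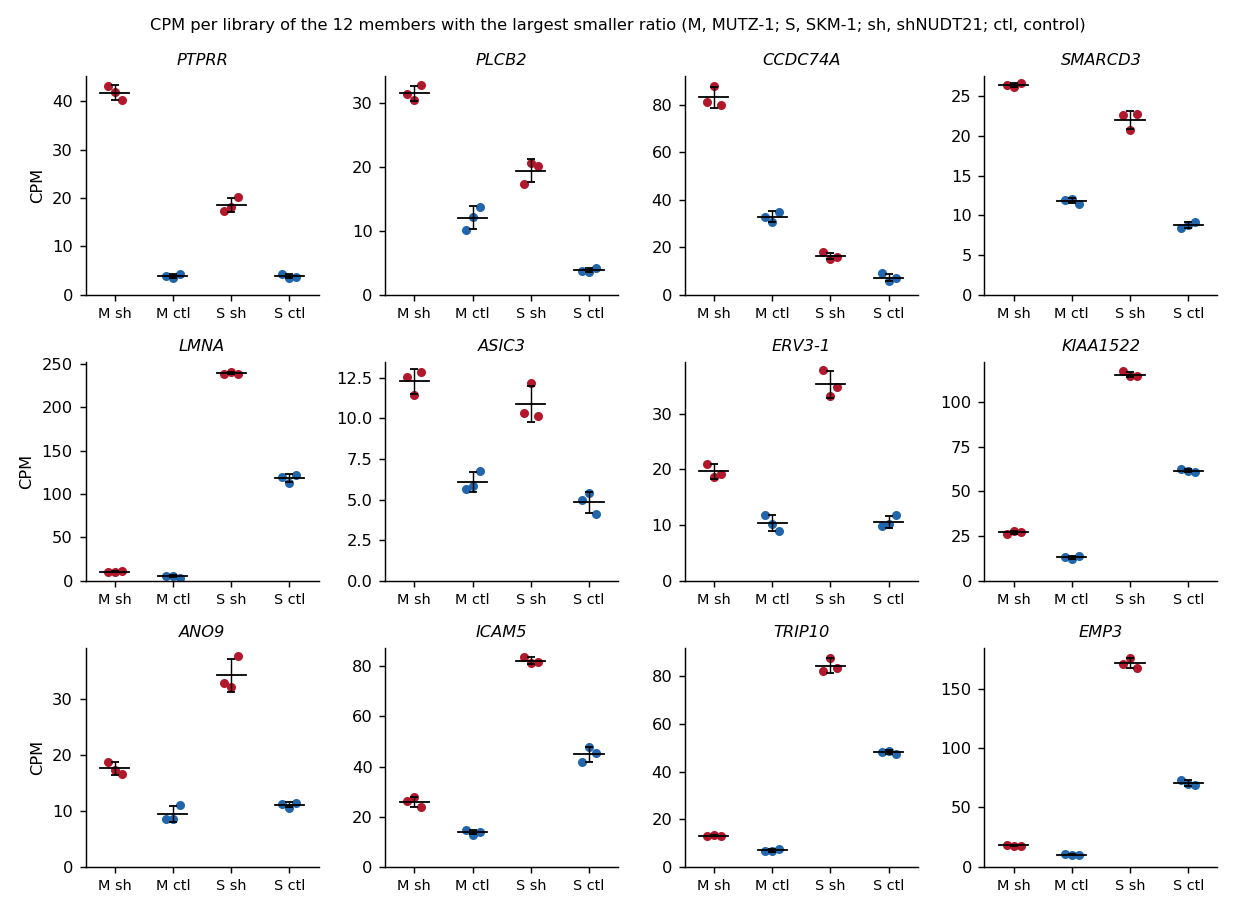
CPM in each library (points), with group mean and SD (bars, n = 3), of the 12 genes with the largest smaller ratio, for shNUDT21 (red) and control (blue) in MUTZ-1 (M) and SKM-1 (S); each panel has its own axis from 0. The red points lie above the blue points of the same line in every panel, by ratios of at least 1.75 (EMP3 in MUTZ-1, TRIP10 in SKM-1), and the lines differ far more in LMNA than in PTPRR.

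The other 6 of the 12 leading genes were ERV3-1, KIAA1522, ANO9, ICAM5, TRIP10 and EMP3. ERV3-1, the envelope gene of an endogenous retrovirus, averaged 19.6 ± 1.27 CPM in shNUDT21 and 10.4 ± 1.42 CPM in control MUTZ-1 cells, and 35.2 ± 2.39 and 10.6 ± 1.03 CPM in SKM-1 cells (SD, n = 3 each). It overlaps ZNF117 on the same strand, so that its counts are uncertain. ANO9, of the anoctamin family of channels and scramblases, averaged 17.6 ± 1.08 CPM in shNUDT21 and 9.4 ± 1.45 CPM in control MUTZ-1 cells, and 34.3 ± 2.96 and 11.1 ± 0.456 CPM in SKM-1 cells. For these 2 genes the control libraries of the lines overlapped and the ratio was larger in SKM-1, 3.33 for ERV3-1 and 3.1 for ANO9.

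ICAM5 codes for telencephalin, an adhesion receptor, TRIP10 for CIP4, a CDC42 effector that bends membranes, and EMP3 for a small membrane protein. ICAM5 averaged 26 ± 1.98 CPM in shNUDT21 and 13.8 ± 0.859 CPM in control MUTZ-1 cells, and 82.3 ± 1.35 and 44.9 ± 2.94 CPM in SKM-1 cells. TRIP10 averaged 13.1 ± 0.341 CPM in shNUDT21 and 6.88 ± 0.461 CPM in control MUTZ-1 cells, and 84.4 ± 3.07 and 48.1 ± 0.802 CPM in SKM-1 cells. KIAA1522, ICAM5, TRIP10 and EMP3 all had their higher levels in SKM-1, where EMP3 averaged 172 ± 4.37 CPM with shNUDT21 and 70.6 ± 2.28 CPM in the control. The ratio of EMP3 was 1.75 in MUTZ-1 and 2.43 in SKM-1, and that of KIAA1522 2.08 and 1.87.

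The UGUA motif that NUDT21 recognises reads TGTA in DNA letters. A stretch of the 3' UTR holding the TGTA nearest to the annotated end is shown for 6 of the genes, chosen by hand. Each is 30 bases, 5' to 3', read from GRCh38 with GENCODE v29, with TGTA in capitals.
PTPRR: aaggacatttccaTGTAtgtccttacattt
PTPRB: acatttttatattTGTAactgtggtaaaaa
LMNA: gcgcttgcttttcTGTAttttatttagaca
MYB: gtacttactgcctTGTAgcaaaataaagat
HES1: tgttattaaaagaacattTGTAaaaatcca
GADD45A: aaccatattttatTGTAttttgatgagata
They lie at chr12:70638220-70638249 (minus strand), chr12:70515935-70515964 (minus strand), chr1:156139743-156139772 (plus strand), chr6:135219125-135219154 (plus strand), chr3:194138703-194138732 (plus strand) and chr1:67688184-67688213 (plus strand). The motif starts 155 bases before the annotated end in PTPRR, 86 in PTPRB, 334 in LMNA, 36 in MYB, 12 in HES1 and 142 in GADD45A. In PLCB2 and JUNB, which are not shown, the nearest TGTA starts 116 and 247 bases before it. The 3' UTRs of CCDC74A, SMARCD3 and ASIC3, of 268, 130 and 101 bases, held no TGTA in the transcript examined. In stretches this short the absence of a match says little.

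TGTA was less dense in the 3' UTRs of the 137 genes than in those of all genes at the minimum level. Among 3' UTRs of at least 100 bases, the median was 3.96 per kilobase over 131 of the 137 genes, against 5.27 over 8075 genes. A TGTA in the last 100 bases was present in 66 of the 131 (50.4%) and in 4574 of the 8075 (56.6%). The median 3' UTR length was 1025 bases in the 137 genes and 1156 bases in all. Transcripts of the 137 genes were richer in G and C, with a median GC content of 54.9% against 48.0%, and the part of GC content in the TGTA density was not tested. A match is a string of letters and not a site of binding.

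The share of genes that belong to the 137 was larger in each higher bin when the 8447 genes were cut into 5 equal bins of transcript GC content. It was 0.888% (15 of 1689 genes) in the lowest bin and then 1.01%, 1.24%, 1.78% and 3.20% (54 of 1688 genes) in the highest, which thus held 39.4% of the 137. The share of genes that reached the ratio in MUTZ-1, whatever their SKM-1 ratio, was 8.41% in the lowest bin and 13.5% in the highest, and in SKM-1 it was 24.4% and 32.9%. Centring each line's log2 ratios within the bins of GC content, an alternative chosen after seeing the data, left 131 genes, of which 121 are among the 137. The median log2 ratio of a bin ran only between 0.0013 and 0.050 in MUTZ-1 and between -0.073 and 0.095 in SKM-1. Centring on such medians moves the ratios little and so cannot decide the part of GC content in the list. Median gene length differed little, with 4477 bases in the 137 genes and 4141 in all. By 5 equal bins of gene length, however, the lines went opposite ways. The share that reached the ratio rose from 5.50% in the shortest bin to 11.9% in the longest in MUTZ-1, and fell from 36.9% to 20.1% in SKM-1. The share that belongs to the 137 was 1.36% in the shortest bin and 1.66% in the longest.

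**Figure D3:**
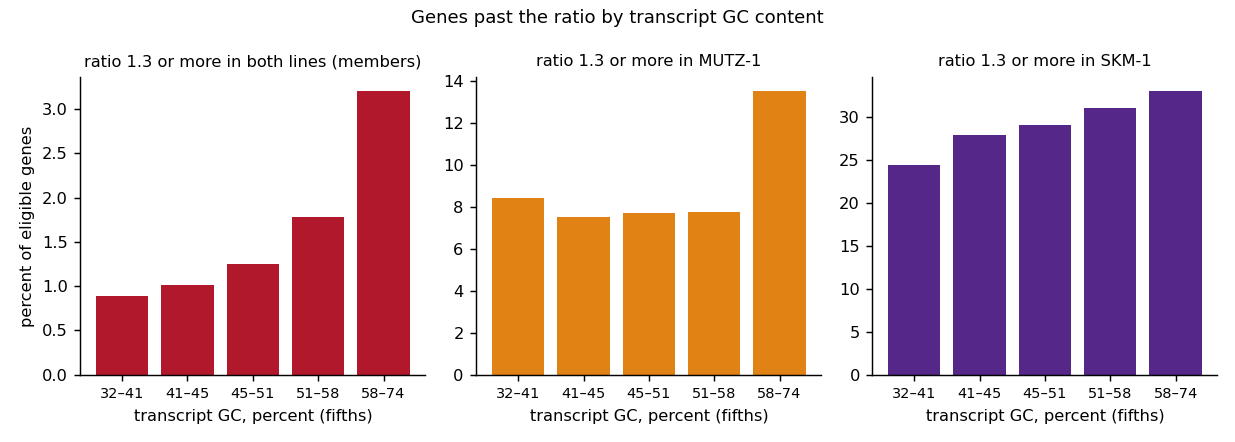
Percent of the genes at the minimum level that passed the ratio of 1.3, by 5 equal bins of transcript GC content (low to high), in both lines (red, the 137 genes), in MUTZ-1 (orange) and in SKM-1 (purple); the y axes start at 0 and differ in scale. In both lines together the share is 0.888% in the lowest bin and 3.20% in the highest.

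Promoters are shown for 4 of the 6 genes with a ratio of at least 2 in both lines, PTPRR, SMARCD3, LMNA and ASIC3. They are the 250 bases before the gene's start in RefSeq (GRCh38.p14), 5' to 3' on the gene's strand, with matches to the motifs searched in capitals, on either strand.
PTPRR: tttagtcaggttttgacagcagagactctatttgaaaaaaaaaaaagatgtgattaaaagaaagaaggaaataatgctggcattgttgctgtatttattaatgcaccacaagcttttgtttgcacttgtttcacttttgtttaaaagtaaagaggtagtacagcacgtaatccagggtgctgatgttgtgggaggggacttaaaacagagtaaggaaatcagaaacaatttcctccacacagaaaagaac
SMARCD3: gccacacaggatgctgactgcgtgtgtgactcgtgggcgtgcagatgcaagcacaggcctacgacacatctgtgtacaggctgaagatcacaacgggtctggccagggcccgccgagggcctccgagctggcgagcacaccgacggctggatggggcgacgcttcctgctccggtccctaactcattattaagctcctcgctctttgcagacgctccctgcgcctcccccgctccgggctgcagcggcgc
LMNA: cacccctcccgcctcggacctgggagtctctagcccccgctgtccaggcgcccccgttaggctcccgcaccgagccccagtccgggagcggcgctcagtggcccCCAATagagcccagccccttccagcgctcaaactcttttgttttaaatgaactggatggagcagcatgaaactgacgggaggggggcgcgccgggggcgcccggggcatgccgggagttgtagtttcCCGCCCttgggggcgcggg
ASIC3: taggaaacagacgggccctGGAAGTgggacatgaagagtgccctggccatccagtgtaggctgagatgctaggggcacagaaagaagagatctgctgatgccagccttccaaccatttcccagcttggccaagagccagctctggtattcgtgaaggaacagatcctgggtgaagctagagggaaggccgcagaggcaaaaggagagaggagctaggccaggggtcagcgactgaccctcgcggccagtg
They lie at chr12:70754609-70754858 (minus strand), chr7:151277150-151277399 (minus strand), chr1:156082323-156082572 (plus strand) and chr7:151048042-151048291 (plus strand). The starts that RefSeq gives for PTPRR and SMARCD3 lie inside the longer genes of GENCODE, as do the stretches shown for them. LMNA holds a CCAAT and a GGGCGG, read as CCGCCC, and ASIC3 holds a GGAAGT; these are present in 36.9%, 70.3% and 26.1% of the 7069 promoters of genes at the minimum level. Of the other motifs searched, the TATA box TATAAA was in 4.29% of these promoters, the E-box CACGTG in 9.69%, the cyclic AMP element TGACGTCA in 3.42%, the AP-1 element TGACTCA in 1.97% and the GATA motif GATAAG in 2.98%, and none of these was in the 4 shown. No motif searched overlapped another there. A comparison of motif shares over the 137 genes is void, since only 102 of them (74.5%) have a promoter in the table.

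By known role, 24 of the 137 genes belong to the nuclear lamina, cytoskeleton, cilium or centrosome, 23 to signalling, 14 each to transcription and chromatin and to channels and transporters, 12 each to membrane traffic and to enzymes, 10 to the cell surface, 8 to translation, protein folding and turnover and 4 to the cell cycle, DNA damage and cell death. No role is given here for 16. The roles were assigned by hand with the values in view and carry no test. The median ratio of a role ran between 1.35 and 1.58 in MUTZ-1 and between 1.51 and 2.15 in SKM-1.

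**Figure D4:**
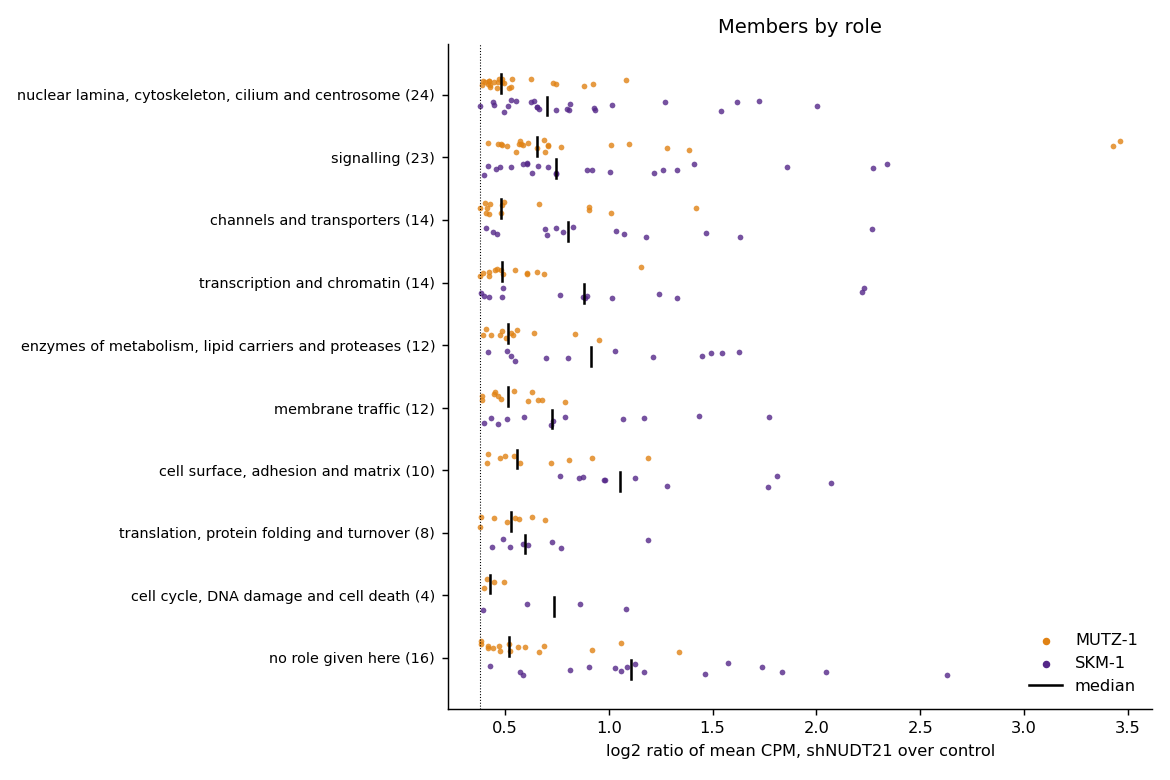
Log2 ratio of mean CPM, shNUDT21 over control, of each of the 137 genes by role (number of genes in brackets), in MUTZ-1 (orange, upper row) and SKM-1 (purple, lower row); black bars are medians and the dotted line is the ratio of 1.3. In every role the SKM-1 median lies to the right of the MUTZ-1 median, and the signalling genes PTPRR and PTPRB stand alone at the right in MUTZ-1.

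Among the signalling genes were cell surface receptors and costimulators. CD80, a ligand of CD28 and CTLA4 on antigen-presenting cells, averaged 22.9 ± 2.41 CPM in shNUDT21 and 13.4 ± 0.746 CPM in control MUTZ-1 cells, and 10.6 ± 0.969 and 2.92 ± 0.305 CPM in SKM-1 cells. It overlaps TIMMDC1 on the other strand, which averaged 74.9 CPM over the 4 groups, so that its counts are uncertain. IFNAR2, a subunit of the type I interferon receptor, averaged 202 ± 7.24 and 124 ± 2.22 CPM in shNUDT21 and control MUTZ-1 cells, and 32.8 ± 1.06 and 24.6 ± 2.73 CPM in SKM-1 cells. The receptor kinase TYRO3 had ratios of 1.62 in MUTZ-1 and 1.58 in SKM-1, the semaphorin receptor PLXND1 1.61 and 2.51, and ADGRE5, the leukocyte adhesion receptor CD97, 1.53 and 1.52. GIPR, the receptor of the gut hormone GIP, had its larger ratio in MUTZ-1, 2.14, against 1.5 in SKM-1. Its MUTZ-1 means were 14.5 CPM in shNUDT21 and 6.76 CPM in control cells, so it reached 10 CPM there only through the knockdown group.

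Inside the cell, both PIM kinases in the set, which phosphorylate serine and threonine and favour survival of blood cells, were higher in each line. PIM1 averaged 117 ± 1.91 CPM in shNUDT21 and 84.7 ± 3.2 CPM in control MUTZ-1 cells, and 638 ± 9.27 and 381 ± 6.95 CPM in SKM-1 cells. PIM2 averaged 91.3 ± 1.55 and 65.3 ± 1.26 CPM in shNUDT21 and control MUTZ-1 cells, and 195 ± 6.39 and 81.3 ± 2.41 CPM in SKM-1 cells. PIM2 had the larger ratio in SKM-1, 2.4 against 1.67 for PIM1, and the 2 were close in MUTZ-1, 1.4 and 1.38. GAB2, a docking protein of cytokine receptors, and RHOC, a small GTPase of the actin cytoskeleton, had their larger ratio in MUTZ-1, 2.43 and 2.01, against 1.39 and 1.37 in SKM-1. GAB2 averaged 13.4 CPM in shNUDT21 and 5.53 CPM in control MUTZ-1 cells, reaching 10 CPM there only through the knockdown group. GNB4, a beta subunit of G proteins, had ratios of 1.63 in MUTZ-1 and 1.86 in SKM-1, and PLCB3, a phospholipase C like PLCB2, 1.47 and 1.32.

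Of the transcription and chromatin genes, MYB and HES1 had the largest ratios in SKM-1. MYB, a transcription factor of blood progenitors, had 127, 129 and 132 CPM in the shNUDT21 libraries of MUTZ-1, against 98.1, 98 and 101 CPM in the control libraries. SKM-1 gave 281, 277 and 281 CPM in the shNUDT21 libraries, against 62.2, 60.1 and 57 CPM in the control libraries. MYB was thus barely inside the rule in MUTZ-1, at 1.3, and had one of the largest ratios in SKM-1, 4.68. HES1, a repressor downstream of Notch, had 11.3, 11.4 and 11.1 CPM in the shNUDT21 libraries of MUTZ-1, against 7.12, 8.3 and 6.78 CPM in the control libraries. In SKM-1 it had 14, 15.5 and 15.1 CPM in the shNUDT21 libraries, against 3.08, 2.75 and 3.75 CPM in the control libraries. HES1 had ratios of 1.52 in MUTZ-1 and 4.65 in SKM-1, and its SKM-1 groups lay further apart than its MUTZ-1 groups.

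JUNB, an AP-1 subunit, averaged 53.1 ± 2.69 CPM in shNUDT21 and 38.8 ± 2.4 CPM in control MUTZ-1 cells, and 72.9 ± 0.326 and 36.1 ± 1.87 CPM in SKM-1 cells. It overlaps HOOK2 on the other strand. ZNF106, a zinc finger protein that binds RNA, averaged 504 ± 2.21 and 320.0 ± 12.4 CPM in shNUDT21 and control MUTZ-1 cells, and 168 ± 5.38 and 98.7 ± 2.39 CPM in SKM-1 cells. ZNF106 was more even in its ratios, 1.57 in MUTZ-1 and 1.7 in SKM-1. Near the threshold in both lines were BCL7C, a SWI/SNF subunit, which had 1.34 and 1.32, MIER2 1.32 and 1.34, and SS18L1 1.38 and 1.3.

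The cytoskeletal genes held motor proteins, microtubule binders and actin regulators. KIF1C and KIFC2, both kinesins, had ratios of 1.43 and 1.4 in MUTZ-1 and 1.41 and 1.54 in SKM-1. MACF1, a large linker of microtubules and actin, averaged 133 ± 2.01 CPM in shNUDT21 and 97.4 ± 2.67 CPM in control MUTZ-1 cells, and 458 ± 14.3 and 273 ± 5.85 CPM in SKM-1 cells. SEPTIN8, a filament-forming GTPase, averaged 24.5 ± 0.334 and 17.6 ± 0.351 CPM in shNUDT21 and control MUTZ-1 cells, and 302 ± 3.58 and 191 ± 4.06 CPM in SKM-1 cells. The actin-capping protein CAPG had ratios of 1.31 in MUTZ-1 and 3.3 in SKM-1, and FAM83H, which organises keratin filaments, 1.67 and 4.01. Their MUTZ-1 control means, 8.93 CPM for CAPG and 8.73 CPM for FAM83H, were under 10 CPM.

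Of the channels and transporters, KCNH2, the hERG potassium channel, had 78.4, 81.4 and 75.9 CPM in the shNUDT21 libraries of MUTZ-1, against 59.4, 60.4 and 55.8 CPM in the control libraries. SKM-1 gave 771, 796 and 803 CPM in the shNUDT21 libraries, against 160.1, 168 and 165 CPM in the control libraries. The groups did not overlap in either line, but the ratio was 1.34 in MUTZ-1 and 4.81 in SKM-1. UCP2, a carrier of the inner mitochondrial membrane, averaged 526 ± 6.85 CPM in shNUDT21 and 373 ± 6 CPM in control MUTZ-1 cells, and 154 ± 7.83 and 94.7 ± 3.54 CPM in SKM-1 cells. TCIRG1, a subunit of the proton pump of lysosomes, had ratios of 1.33 in MUTZ-1 and 2.77 in SKM-1, and ABCB9, a lysosomal peptide transporter, 1.87 and 1.71. ABCB9 overlaps ARL6IP4, at a mean of 116 CPM over the 4 groups, and OGFOD2 on the other strand. SLC27A2, a fatty acid transporter, had its larger ratio in MUTZ-1, with 2.67 in MUTZ-1 and 1.36 in SKM-1. In MUTZ-1 it averaged 10.2 CPM in shNUDT21 and 3.83 CPM in control cells, so it reached 10 CPM there only through the knockdown group.

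At the cell surface, SPN codes for CD43, the main sialoglycoprotein of leukocytes, and averaged 206 ± 6.53 CPM in shNUDT21 and 154 ± 0.794 CPM in control MUTZ-1 cells, and 369 ± 7.14 and 108 ± 1.25 CPM in SKM-1 cells. The junction protein JUP had ratios of 1.41 in MUTZ-1 and 1.81 in SKM-1. AGRN, a heparan sulphate proteoglycan, had 1.65 and 1.98. TMBIM1, a membrane protein of the family of BAX inhibitor 1, had its larger ratio in MUTZ-1, 2.28 against 1.7 in SKM-1, and overlaps PNKD on the other strand. The MUTZ-1 control mean of TMBIM1 was 7.34 CPM, so it reached 10 CPM there only through the knockdown group.

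Among genes of membrane traffic, RABGAP1L, which acts on RAB GTPases, averaged 687 ± 8.29 CPM in shNUDT21 and 472 ± 1.99 CPM in control MUTZ-1 cells, and 50.7 ± 1.66 and 37.6 ± 3.08 CPM in SKM-1 cells. EHBP1L1, which links RAB proteins to membrane tubules, averaged 251 ± 5.52 and 164 ± 5.13 CPM in shNUDT21 and control MUTZ-1 cells, and 151 ± 1.83 and 66.9 ± 1.07 CPM in SKM-1 cells. PACS1, a sorting adaptor of the trans-Golgi network, had ratios of 1.4 in MUTZ-1 and 3.41 in SKM-1. The enzymes included MAN1A1, a mannosidase of the Golgi, which averaged 419.5 ± 3.36 CPM in shNUDT21 and 235 ± 5.55 CPM in control MUTZ-1 cells, and 216 ± 2.86 and 134 ± 2.2 CPM in SKM-1 cells. BPGM, which makes 2,3-bisphosphoglycerate in red cells, had ratios of 1.35 and 1.34, and the urea cycle enzyme ASL 1.31 and 3.09. MYLIP, a ubiquitin ligase of the LDL receptor, had 1.55 in MUTZ-1 and 2.28 in SKM-1, and the elongation factor EEF1A2 1.62 and 1.53.

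The role of cell cycle, DNA damage and cell death was given to 4 of the 137 genes. GADD45A, a stress-induced gene that slows the cell cycle, averaged 124 ± 2.62 CPM in shNUDT21 and 90.9 ± 3.08 CPM in control MUTZ-1 cells, and 96.7 ± 2.02 and 73.5 ± 0.575 CPM in SKM-1 cells. CCNE2, a cyclin of the entry into S phase, averaged 65.6 ± 2.54 and 49.2 ± 0.748 CPM in shNUDT21 and control MUTZ-1 cells, and 23 ± 1.58 and 12.7 ± 1.18 CPM in SKM-1 cells. It overlaps INTS8, at a mean of 101 CPM over the 4 groups, and NDUFAF6 on the other strand. DONSON, a protein of the replication fork that overlaps SON on the other strand, had ratios of 1.32 and 1.52, and CRADD, an adaptor of caspase-2, 1.41 and 2.12. CRADD averaged 8.31 CPM in control MUTZ-1 and 8.21 CPM in control SKM-1 cells, and reached 10 CPM in each line only through the knockdown group.

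Genes without a role given here included some of the largest ratios. ANKRD33B had 87.5, 78.6 and 87.2 CPM in the shNUDT21 libraries of MUTZ-1, against 52.9, 51.9 and 55 CPM in the control libraries. In SKM-1 it had 20.7, 18.1 and 23.4 CPM in the shNUDT21 libraries, against 4.21, 3.03 and 2.84 CPM in the control libraries, the largest ratio of the 137 in that line at 6.18. TRANK1 had ratios of 1.44 in MUTZ-1 and 4.13 in SKM-1, and NIBAN1 1.61 and 3.57.

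Together the 137 genes made up 10961.5 CPM in shNUDT21 MUTZ-1 cells, against 7440.0 CPM in the controls, and 12059.2 CPM in shNUDT21 SKM-1 cells, against 6360.4 CPM in the controls. In FPKM, which relates counts to gene length and library total, their median level was 8.78 in shNUDT21 and 5.70 in control MUTZ-1 cells, and 11.2 and 6.37 in SKM-1 cells, below the median of all genes at the minimum level in the same groups (14.6, 14.3, 13.8 and 14.2 FPKM). The highest FPKM among the 137 in shNUDT21 MUTZ-1 cells was that of UCP2, 257, against 182 FPKM in the controls. In shNUDT21 SKM-1 cells it was that of PIM1, 236, against 141 FPKM in the controls, followed by EMP3 with 226 against 92.9 FPKM.

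Gene lists that cover the known biology of NUDT21 and of blood cells, 40 in all, held 736 distinct genes at the minimum level, and 7 of these (0.951%) were among the 137, against 1.62% of the 8447 genes. By list, 33 held no member and 7 held 1 each. At that share most lists are too small for a count of 0 to say anything about them. None of 31 factors of 3' end processing was a member, and their median log2 ratio was -0.050 in MUTZ-1 and 0.26 in SKM-1. None of 17 genes with known NUDT21-dependent poly(A) sites was a member, and 1 of them had the ratio in MUTZ-1 and 3 in SKM-1. None of 8 erythroid genes at the minimum level in both lines was a member: 0 had the ratio in MUTZ-1 and 7 had it in SKM-1.

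The 7 genes held by a list were GADD45A, JUNB, MYB, CCNE2, MYLIP, RHOC and KIF1C. GADD45A was the member among 16 p53 target genes, of which 5 had the ratio in MUTZ-1 and 7 in SKM-1. JUNB was the member among 5 genes of ERK output, MYB among 8 progenitor transcription factors and CCNE2 among 20 cyclins and cell cycle brakes. MYLIP was the member among 15 genes of cholesterol export and fatty acids, and KIF1C among 18 kinesin and dynein genes, of which 6 had the ratio in MUTZ-1 and 2 in SKM-1. For comparison, 1.62% of all genes at the minimum level were members.

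Members lay on 21 of the chromosomes, with 23 of 879 genes at the minimum level on chromosome 1 (2.62%), 14 of 486 on chromosome 11 (2.88%), 3 of 79 on chromosome 21 (3.80%), and none of 147 on chromosome 13 and of 274 on chromosome 14. The median log2 ratio of all such genes in SKM-1 was lowest on chromosome 13 and highest on chromosome 21. Pairs of neighbouring members, with no other member between them and less than 1e+06 bases apart, numbered 29. PTPRR and PTPRB were the closest, and FAM89B and EHBP1L1 on chromosome 11 were 1839 bases apart, with ratios of 1.48 and 1.52 in MUTZ-1 and 1.49 and 2.25 in SKM-1. On chromosome 7, KCNH2, ASIC3 and SMARCD3 followed each other at distances of 69976 and 186007 bases. On chromosome 6, HBS1L, a translation rescue factor, was 78258 bases from MYB, with ratios of 1.31 against 1.3 in MUTZ-1 and 1.4 against 4.68 in SKM-1. Gene bodies of 35 members overlapped another gene of the table, in 26 cases on the other strand. The counts of pairs and of overlaps were not made for all genes at the minimum level, so nothing is read from them.

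The difference of the 137 genes between the lines was tested as MUTZ-1 against SKM-1 over the mean of both groups, with edgeR's quasi-likelihood test and Benjamini-Hochberg adjustment over 13625 genes. That mean includes the shNUDT21 libraries, in which the rule required the members to be high, so the same counts are also given over control libraries only, whose values enter the rule too. At an adjusted p under 0.05, 63 of the 137 were higher in MUTZ-1 (46.0%) and 70 higher in SKM-1 (51.1%), against 43.1% and 48.3% of all genes tested and 52.5% and 39.0% of the genes at the minimum level. At least 2-fold differences were found for 28 genes higher in MUTZ-1 (20.4%) and 35 higher in SKM-1 (25.5%), against 16.1% and 25.8% of all genes tested and 12.4% and 6.72% of the genes at the minimum level. The median log2 difference was -0.11 in the 137 genes and 0.12 in the genes at the minimum level. With control libraries only, 69 of the 137 were higher in MUTZ-1 and 55 higher in SKM-1, against 52.3% and 37.5% of the genes at the minimum level. Of these, 37 and 29 differed at least 2-fold, against 16.1% and 29.6% of all genes tested and 14.0% and 9.61% of the genes at the minimum level. Between the calculations 10 genes changed sign, and SPN, JUNB, MYB and SRD5A3 were called higher in SKM-1 over both groups and higher in MUTZ-1 in control libraries.

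**Figure D5:**
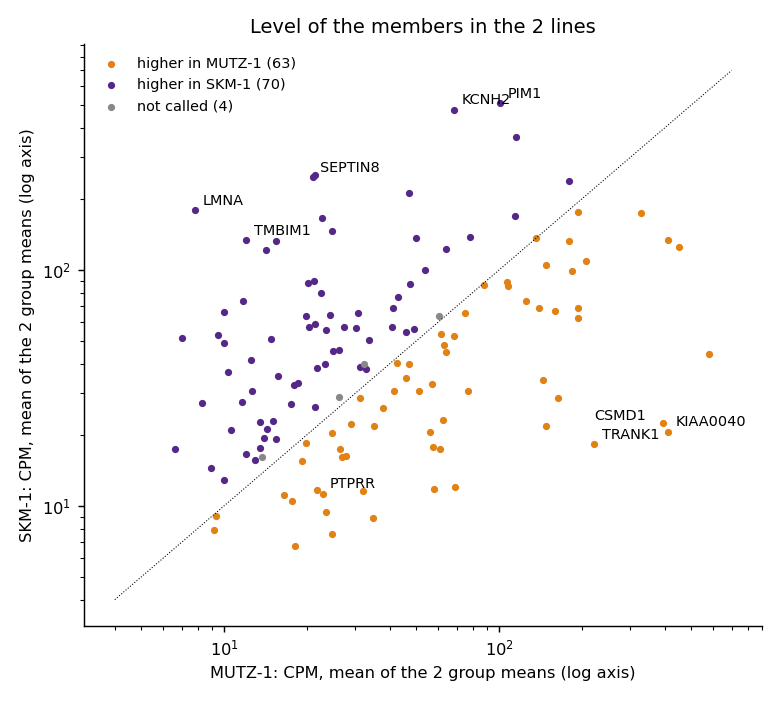
CPM of the 137 genes in MUTZ-1 (x axis) and SKM-1 (y axis), each the mean of the shNUDT21 and control group means, on log axes; the dotted line marks equal levels. The 63 genes higher in MUTZ-1 (orange) and the 70 higher in SKM-1 (purple) spread to both sides of the line, with LMNA far above it and KIAA0040 and CSMD1 far below.

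The genes furthest towards MUTZ-1 were KIAA0040, CSMD1 and TRANK1. KIAA0040 averaged 411 CPM in MUTZ-1 and 20.6 CPM in SKM-1, a log2 difference of 4.48 ± 0.03 (SE, adjusted p = 7.72e-217 by edgeR). CSMD1, a membrane protein with complement control domains, differed by 4.46 ± 0.03 (adjusted p = 1.05e-215 by edgeR) and TRANK1 by 3.99 ± 0.03 (adjusted p = 1.96e-190 by edgeR). Furthest towards SKM-1 were LMNA, TMBIM1 and SEPTIN8. LMNA averaged 7.83 CPM in MUTZ-1 and 179 CPM in SKM-1, a log2 difference of -4.45 ± 0.04 (adjusted p = 1.24e-174 by edgeR). TMBIM1 differed by -3.47 ± 0.04 (adjusted p = 1.3e-162 by edgeR) and SEPTIN8 by -3.46 ± 0.03 (adjusted p = 1.57e-187 by edgeR). In their lower line LMNA, TMBIM1, CSMD1 and TRANK1 reached 10 CPM only through the knockdown group. Control means there were 5.02 CPM for LMNA and 7.34 CPM for TMBIM1 in MUTZ-1, and 9.93 CPM for CSMD1 and 7.09 CPM for TRANK1 in SKM-1. With control libraries only, the log2 differences were 5.15 for CSMD1, 4.82 for TRANK1, -4.42 for LMNA and -3.62 for TMBIM1. The replicates of each group are separate samples in the labels, and the p-values cover no more than the spread between these libraries, which can be technical.

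Of the 12 leading genes, PTPRR, PLCB2, CCDC74A, SMARCD3 and ASIC3 were higher in MUTZ-1, and LMNA, ERV3-1, KIAA1522, ANO9, ICAM5, TRIP10 and EMP3 were higher in SKM-1. The log2 difference was 2.33 ± 0.05 for CCDC74A, 1.25 ± 0.07 for PLCB2 and 0.66 ± 0.09 for PTPRR, and -2.94 ± 0.04 for EMP3 and -2.68 ± 0.05 for TRIP10. In SKM-1, PTPRR, PLCB2, CCDC74A, SMARCD3 and ASIC3 reached 10 CPM only through the knockdown group. The same held in MUTZ-1 for PTPRR, LMNA, ASIC3, ANO9 and TRIP10. Control libraries alone gave log2 differences of 2.31 for CCDC74A, 1.79 for PLCB2, 0.57 for SMARCD3, 0.47 for ASIC3, -2.64 for EMP3 and -2.67 for TRIP10. For PTPRR, ERV3-1 and ANO9 the call rested on the knockdown libraries. With control libraries only, the log2 differences were 0.15 for PTPRR (adjusted p = 0.343 by edgeR), 0.11 for ERV3-1 (adjusted p = 0.296 by edgeR) and -0.10 for ANO9 (adjusted p = 0.357 by edgeR). For MYADM, KLHL17, NUMBL and CCDC112 no line difference passed the threshold, with log2 differences of 0.09 ± 0.05, 0.0014 ± 0.03, -0.08 ± 0.05 and -0.09 ± 0.07 (SE, edgeR).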

How the data were processed

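The 12 RNA-seq libraries fall into 4 groups of 3 by their sample titles. Per the labels' protocols, TRIzol served for total RNA and the TruSeq Stranded mRNA kit for libraries. The authors deposited whole-number counts per gene, and FPKM values per gene for the same libraries. Per the submitters' processing notes, the tools were HISAT2, HTSeq and fastp and the build GRCh38, with no versions. The sources used here give neither the annotation nor the strand setting nor the handling of multi-mapped reads, so that counts of near-identical copies and overlapping genes are uncertain. The libraries held 15843012 to 18426619 counts. Chi-square per degree of freedom between replicates was 1.66 to 2.25, above sampling noise, and each was counted as 1 sample.

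CPM was the deposited count divided by the library's total. The members and the 40 gene lists were chosen with earlier results of these data known. Roles were assigned by hand where known. Genes named are the 12 with the largest smaller ratio, the 5 with the highest mean CPM, the 3 just inside and just outside the threshold, members of a list and the 3 furthest towards each line. Other genes were chosen after their values were seen. The values of 1 member and of 1 list are not reported here.

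Tests used edgeR 4.0.16 in R 4.3.3 on 13625 genes kept by filterByExpr, with TMM factors of 0.959 to 1.06, robust quasi-likelihood in 1 fit with a mean per group, 8 residual degrees of freedom and a biological coefficient of variation of 2.44%. Standard errors (SE) are the size of the log2 difference divided by the square root of F. The step was tested on simulated data in which few genes differed between the lines. Most genes tested differed between the lines here, so that run cannot decide whether the scaling holds for these data. Alternatives used DESeq2 1.42.0, and limma 3.58.1 on log2(FPKM + 1) and log2(FPKM + 0.1). Replicate numbers are shared across groups in the labels, but the deviations of same-numbered libraries correlated at -0.049 to 0.082, so they were not taken as pairs.

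Gene positions and transcripts came from GENCODE v29 (GRCh38), which matched all 137 genes by current or older symbol, and promoters from RefSeq (GRCh38.p14), which matched 102. Python 3.11.15 with pandas 2.3.3 was used. In groups of 3 no library was tested as an outlier.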

Additional observations from a re-analysis of the deposited data

How the results depend on the processing

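The membership depends on its thresholds: no minimum level gave 668 genes, a ratio of 1.2 gave 305, a ratio of 1.5 gave 43 and a ratio of 2 gave 6, while a minimum of 5 CPM gave 192 and of 20 CPM gave 97. With TMM-scaled library sizes 116 genes passed, of which 106 are among the 137, and with DESeq2 size factors 134 passed, of which 123 are. FPKM in place of CPM gave the same 137. Leaving out each library in turn gave 133 to 147 genes, of which 128 to 135 are among the 137. Centring the ratios within 5 bins of GC content, within 5 bins of length or by chromosome, alternatives chosen after seeing the data, gave 131, 137 and 128 genes, of which 121, 119 and 106 are among the 137. Since the medians of the GC bins differed little, centring on them cannot decide the part of GC content in the list. The numbers of genes higher in MUTZ-1 and in SKM-1 were 62 to 64 and 69 to 71 without each library in turn, and 63 and 70 with the replicate number as a block, though these numbers do not pair the libraries. They were 61 and 73 with library totals and with either FPKM scale, 61 and 71 with DESeq2, and 69 and 55 with control libraries only. With control libraries only, 10 of the 137 changed direction, 8 of them called higher in SKM-1 over both groups. Among these 8 are SPN, at 0.64 (adjusted p = 5.85e-51) against -0.097 over both groups, and the 3 that the naming rule picks: ERV3-1 to 0.11 (adjusted p = 0.296), MYB to 0.87 (adjusted p = 1.72e-56) and JUNB to 0.24 (adjusted p = 3.34e-05, all by edgeR), against -0.36, -0.12 and -0.11 over both groups, and the cause was not tested. Library totals moved the median log2 line difference of all genes by -0.071, and by -0.14 in control libraries. At these depths the members under 10 CPM in a control group, 19 in MUTZ-1 and 18 in SKM-1, rest on the fewest counts.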
